A study of Mus musculus with 34 samples.

Results

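The genes described here are 46 genes of the cell division cycle, chosen by name and sorted by the phase in which their products act, out of 55487 gene IDs measured in mouse liver. There are 9 genes of G1 and the D-type cyclins, 16 genes of S phase and replication licensing, and 21 genes of mitosis, and all 46 were found in both expression tables of the series. Messenger RNA was sequenced from the livers of male mice 3 months old, each injected intraperitoneally. The 5 livers labelled PiZ p50-KO came from mice that carry the PiZ genotype and a knockout of p50, the NF-kB subunit encoded by Nfkb1, and received PBS. The 5 PiZ livers came from mice with the PiZ genotype that received PBS. PiZ is the usual name of a transgene for the Z variant of human alpha-1 antitrypsin, a secreted protease inhibitor that misfolds and is retained in the endoplasmic reticulum of hepatocytes. A further 6 wild-type (WT) livers were taken 2 hours after TNFa, and 6 WT livers from mice given PBS served as controls for these 3 groups. In a separate batch, 6 WT livers were taken 24 hours after tunicamycin, a blocker of N-linked glycosylation, against 6 WT livers of mice given its vehicle DMSO. The labels give neither the promoter of the transgene, nor the deleted part of Nfkb1, nor whether each library is a separate mouse, and p-values assume that it is.

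Most hepatocytes of an adult liver rest outside the cycle, and injury or loss of tissue can bring them back into it. D-type cyclins with Cdk4 and Cdk6 start this return by phosphorylating the retinoblastoma protein, which releases E2F factors that switch on the genes of licensing and DNA synthesis. Genes of mitosis follow later, through promoters that hold CCAAT boxes and a short element called CHR, at which the DREAM complex represses them in resting cells and the MuvB core with B-Myb and Foxm1 activates them in dividing ones.

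One library, WT PBS 2, is given apart. It held 10.21 M reads, against 35.46 to 53.98 M in the other 21 libraries of its table and 34.31 to 47.80 M in the 12 of the second, and its share of reads on protein-coding genes was 72.22%, with 97.32% to 97.76% in those 21. Nearly all cell cycle genes were high in it: the mean over the genes was 5.19 log2 CPM for G1, 4.12 for S phase and 4.48 for mitosis, where CPM is reads per M reads of the library. In the other 5 WT PBS libraries these means lay between 2.30 and 3.16, between 1.00 and 1.38, and between -3.24 and -2.29. Of the 46 genes, 44 were above every other WT PBS library in it, as were 65.7% of the 14983 genes tested below. Pcna and Cdk4 were not: Pcna was at 0.47 in WT PBS 2 and 4.01 to 4.37 in the others, and Cdk4 at 3.60 and 4.19 to 4.82. The comparisons below therefore use the other 5 WT PBS libraries, and counts with WT PBS 2 are given beside them. Hepatocyte markers such as Alb and Apob were present in every library, with a summed level of 8380 CPM in WT PBS 2 and 28900 to 122000 CPM in the rest of the series. Nfkb1, the targeted gene, was detected in every library labelled PiZ p50-KO. Its level was 4.51, 4.86, 3.31, 3.74 and 3.37 log2 CPM in libraries 1 to 5, against 5.58, 5.45, 5.00, 4.62 and 5.12 in PiZ and 4.34, 4.17, 3.92, 4.32 and 4.14 in WT PBS libraries 1 and 3 to 6. Library 2 of that label lay within the PiZ range, library 1 just below it and libraries 3 to 5 lower still. The log2 fold change of all 5 from PiZ was -1.20 ± 0.34, adjusted p = 0.0153.

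The promoters of 35 of the 46 genes were in the RefSeq table of build GRCm38, as 250 bases before and 50 after each start, and those of Aurkb, Ccna2, Ccnd1, Ccnd2, Ccne2, Cdc25c, Foxm1, Gins1, Gins2, Mcm4 and Tpx2 were not used here. A set of 6 is shown here because these genes carry the contrasts described below: a pair of B-type cyclins, their kinase Cdk1 and the proliferation marker Mki67 for mitosis, and the helicase subunits Mcm5 and Mcm7 for licensing. Each runs 5′ to 3′ on the strand of the gene, from 170 bases before to 30 bases after the start. Capitals mark matches on either strand to an E2F motif (TTNNCGC, where the middle letters are GG, CG, CC or GC), the CHR (TTTGAA, or the form TTCGAA) or the CCAAT box (CCAAT). An E2F match and a CCAAT match overlap where they share the letters CCAA.
Ccnb1 (chr13:100786457-100786656, minus strand): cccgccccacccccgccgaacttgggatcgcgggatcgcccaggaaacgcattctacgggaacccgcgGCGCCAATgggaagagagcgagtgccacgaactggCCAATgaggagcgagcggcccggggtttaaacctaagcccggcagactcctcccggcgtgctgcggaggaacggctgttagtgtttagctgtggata
Ccnb2 (chr9:70421525-70421724, minus strand): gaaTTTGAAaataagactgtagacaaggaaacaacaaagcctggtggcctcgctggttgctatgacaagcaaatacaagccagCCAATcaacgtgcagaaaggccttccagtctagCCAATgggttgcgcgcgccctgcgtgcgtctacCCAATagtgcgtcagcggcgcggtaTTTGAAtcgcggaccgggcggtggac
Cdk1 (chr10:69352883-69353082, minus strand): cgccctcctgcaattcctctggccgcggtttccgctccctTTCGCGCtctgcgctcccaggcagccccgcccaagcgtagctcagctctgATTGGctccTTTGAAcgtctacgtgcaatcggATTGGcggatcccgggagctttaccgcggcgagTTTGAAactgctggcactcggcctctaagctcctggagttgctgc
Mki67 (chr7:135716350-135716549, minus strand): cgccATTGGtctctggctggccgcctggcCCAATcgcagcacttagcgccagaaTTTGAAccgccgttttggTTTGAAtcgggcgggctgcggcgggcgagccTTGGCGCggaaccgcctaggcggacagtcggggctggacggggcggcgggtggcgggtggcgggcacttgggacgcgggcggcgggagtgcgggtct
Mcm5 (chr8:75109339-75109538, plus strand): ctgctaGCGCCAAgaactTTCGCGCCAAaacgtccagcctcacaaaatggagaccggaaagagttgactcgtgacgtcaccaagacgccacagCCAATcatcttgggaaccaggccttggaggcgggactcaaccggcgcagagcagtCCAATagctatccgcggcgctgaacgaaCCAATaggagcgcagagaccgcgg
Mcm7 (chr5:138171854-138172053, minus strand): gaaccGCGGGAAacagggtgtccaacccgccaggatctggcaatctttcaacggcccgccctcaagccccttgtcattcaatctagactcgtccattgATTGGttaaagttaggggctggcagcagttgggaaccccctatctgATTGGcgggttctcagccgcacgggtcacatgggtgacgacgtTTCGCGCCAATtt

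In the whole windows, an E2F motif lay in 9 of 13 S phase genes (69.2%), 3 of 16 mitosis genes (18.8%) and 1 of 6 G1 genes (16.7%), against 10.9% of the 27025 genes of the table. The CHR lay in 12 of 16 mitosis genes (75.0%), 3 of 13 S phase genes (23.1%) and 1 of 6 G1 genes (16.7%), against 21.7% of all genes. A CCAAT box lay in 14 of 16 mitosis genes (87.5%), 10 of 13 S phase genes (76.9%) and 2 of 6 G1 genes (33.3%), against 41.1%. Both CHR and CCAAT were present in 12 of 16 mitosis genes (75.0%) and in 9.65% of all genes. These matches describe the letters of the windows and are not evidence of binding. Cdk1 and Mki67 hold all 3 kinds of match in the sequences printed above, Ccnb1 holds E2F and CCAAT matches, Ccnb2 holds CHR and CCAAT matches, and Mcm5 and Mcm7 hold E2F and CCAAT matches. Mcm7 also has a CHR match (TTCGAA) that starts before its printed stretch and is cut by it, and it is counted among the 3 S phase genes with a CHR.

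PiZ against WT livers after PBS bears on how a liver that makes the Z variant differs. Cell cycle genes of all phases were higher in PiZ, with the smallest median difference in G1 and the greatest in mitosis, an order that was not itself tested. Of 9 G1 genes 8 rose and 0 fell, with a median log2 fold change of 0.89. Of 15 S phase genes tested 14 rose and 0 fell (median 1.33), and of 17 mitosis genes tested 17 rose (median 4.08). Among all 14983 genes tested 42.2% rose and 5.86% fell (48.0% in either direction), with a median of 0.40. Of the mitosis genes, 5 (Ccnb1, Ccnb2, Plk1, Aurkb and Tpx2) passed the filter on low values only because of their level in PiZ, so their difference is built in. Each of the other 12 rose, with a median of 3.84. Differences were tested with limma on log2 CPM and adjusted over all genes tested, and ± after a fold change is its standard error.

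**Figure D1:**
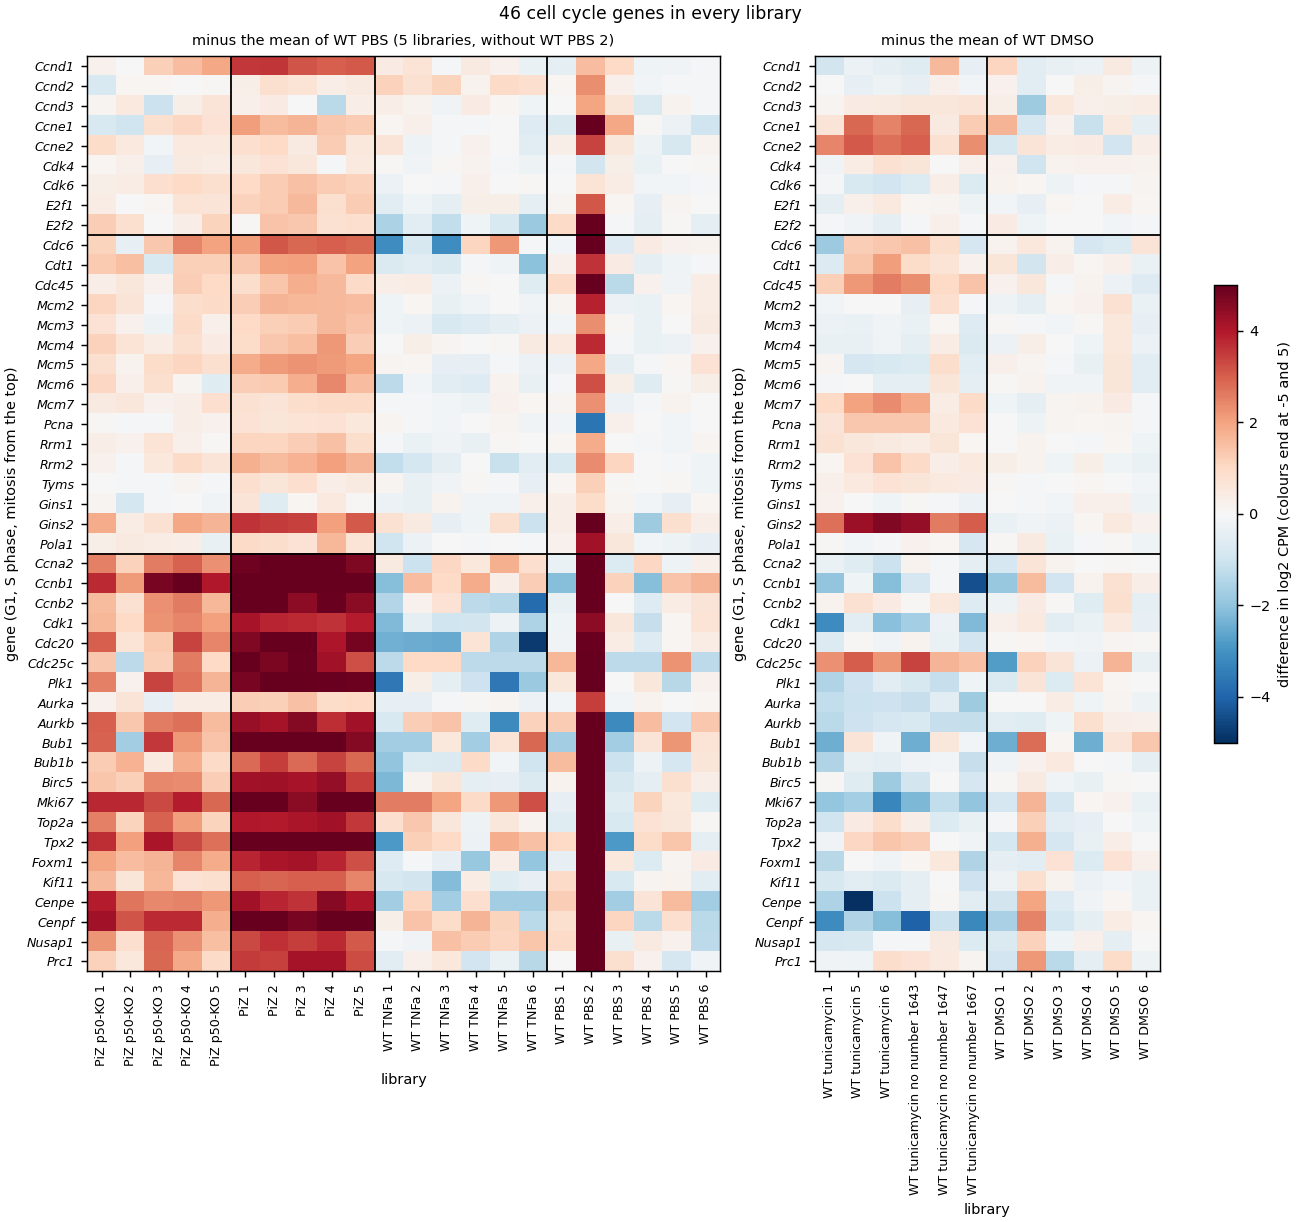
Level of the 46 genes in each library, in log2 CPM relative to the mean of the WT PBS libraries without WT PBS 2 (left) or of the WT DMSO libraries (right), with genes of G1, S phase and mitosis from the top. PiZ libraries are red over nearly all rows and deepest over mitosis, the libraries labelled PiZ p50-KO are paler, and WT PBS 2 is dark red in most rows.

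Among the G1 genes, cyclin D1 (Ccnd1), the partner of Cdk4 and Cdk6 through which growth factors act on the cycle, changed most. It was at 7.05, 7.08, 6.68, 6.51 and 6.57 log2 CPM in PiZ libraries 1 to 5, against 3.02, 4.53, 3.30, 3.33 and 3.40 in WT PBS libraries 1 and 3 to 6. The groups did not overlap, and the log2 fold change was 3.26 ± 0.31, adjusted p = 1.01e-07. Cyclin E1 (Ccne1), the partner of Cdk2 at S phase entry, was at 1.63, 1.14, 1.24, 0.90 and 0.83 in PiZ, against -1.19, 1.50, -0.38, -0.74 and -1.44 in WT PBS. Here WT PBS 3 reached into the PiZ range, and the fold change was 1.60 ± 0.46, adjusted p = 0.00654, which no longer passed when all libraries were shifted to the same median (1.06 ± 0.45, adjusted p = 0.0651). The kinase gene Cdk6 was at 5.08, 5.35, 5.56, 5.37 and 5.23 in PiZ, against 4.09, 4.46, 3.97, 3.97 and 3.99 in WT PBS, without overlap (1.22 ± 0.14, adjusted p = 1.05e-06). The transcription factor gene E2f1 was at 2.94, 3.06, 3.39, 2.59 and 3.06 in PiZ, against 1.92, 1.86, 1.36, 1.91 and 1.81 in WT PBS, also without overlap (1.23 ± 0.20, adjusted p = 4.21e-05).

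The other G1 genes moved less. Cyclin E2 (Ccne2) was at 1.58, 1.74, 1.16, 1.99 and 1.26 in PiZ, against 1.01, 1.30, 0.49, -0.07 and 0.92 in WT PBS, and the groups overlapped (0.81 ± 0.27, adjusted p = 0.0152, and 0.27 ± 0.26, adjusted p = 0.437, after the same shift). E2f2, a second activating E2F, was at 0.97, 2.36, 2.26, 1.69 and 1.77 in PiZ, against 1.86, 0.88, 0.42, 0.96 and 0.48 in WT PBS, a rise of 0.89 ± 0.35, adjusted p = 0.0391, that turned to -0.01 with WT PBS 2 in the fit and no longer passed after the shift (0.35 ± 0.33, adjusted p = 0.429). Cyclin D2 (Ccnd2) was at 3.98, 4.47, 4.35, 4.01 and 4.12 in PiZ, against 3.77, 3.94, 3.52, 3.59 and 3.56 in WT PBS (0.51 ± 0.18, adjusted p = 0.0242), and the direction turned (-0.03) when all libraries were shifted to the same median. The same shift turned Cdk4 (-0.08), which was at 5.07, 5.24, 5.10, 4.46 and 5.00 in PiZ, against 4.47, 4.82, 4.19, 4.54 and 4.56 in WT PBS (0.46 ± 0.16, adjusted p = 0.0251). Cyclin D3 (Ccnd3) did not pass: it was at 4.79, 4.93, 4.53, 3.19 and 4.86 in PiZ, against 4.51, 5.14, 3.79, 4.71 and 4.48 in WT PBS (-0.07 ± 0.32, adjusted p = 0.88), with PiZ 4 the lowest of all 10 libraries. The D-type cyclins thus differed from each other in size of change in these libraries, which was not tested as a difference between genes.

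All S phase genes tested but one rose. Gins2, a subunit of the GINS complex that activates the replicative helicase, was at 2.11, 1.99, 1.91, 0.56 and 1.55 in PiZ, against -1.19, -1.17, -3.29, -0.70 and -1.19 in WT PBS. This was the greatest change of the phase (3.13 ± 0.47, adjusted p = 1.94e-05), with WT PBS 4 far below the other WT libraries. Another GINS subunit gene, Gins1, did not pass (0.13 ± 0.24, adjusted p = 0.663). The helicase subunit gene Mcm5 was at 3.24, 3.51, 3.62, 3.50 and 3.34 in PiZ, against 1.07, 0.93, 1.29, 1.46 and 2.09 in WT PBS. All 5 PiZ libraries lay above all 5 WT PBS libraries, and the fold change was 2.07 ± 0.20, adjusted p = 1.17e-07. The rises of the other subunits lay between 0.85 ± 0.13 for Mcm7 and 1.65 ± 0.30 for Mcm6.

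Rrm2, the regulated subunit of ribonucleotide reductase, which supplies DNA precursors, was at 3.84, 3.64, 3.81, 4.13 and 3.75 in PiZ, against 1.32, 3.12, 2.04, 2.00 and 1.84 in WT PBS. PiZ libraries were again all higher (1.77 ± 0.27, adjusted p = 2.48e-05). Pcna, the sliding clamp of DNA polymerase, was at 4.84, 4.73, 4.80, 4.86 and 4.68 in PiZ, against 4.01, 4.37, 4.14, 4.01 and 4.14 in WT PBS, a small change without overlap (0.65 ± 0.11, adjusted p = 4.67e-05). It no longer passed when all libraries were shifted to the same median (0.11 ± 0.11, adjusted p = 0.49) or with WT PBS 2 in the fit (1.26 ± 0.45, adjusted p = 0.0637). Cdc45, Pola1, Rrm1 and Tyms, which act in helicase activation and in the synthesis of DNA and its precursors, rose by 1.33 ± 0.34, 0.97 ± 0.23, 1.15 ± 0.13 and 0.61 ± 0.13. The licensing factor gene Cdt1 rose by 1.77 ± 0.38, adjusted p = 0.000638. Its partner Cdc6 was too low to be tested, at -1.32, -0.33, -0.54, -0.43 and -0.54 in PiZ, against -3.56, -4.08, -3.00, -3.20 and -3.24 in WT PBS. With no filter on low values it passed as well (2.78 ± 0.82, adjusted p = 0.0156).

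Mitosis genes other than Aurka were low in WT PBS livers. Of the 21, 7 had 0 reads in at least 1 WT PBS library, against 0 of 21 in PiZ. Ccnb1, cyclin B1, was at 3.14, 2.92, 2.17, 2.35 and 2.05 in PiZ, against -6.52, -3.22, -6.52, -2.96 and -2.70 in WT PBS, where -6.52 stands for 0 reads. Its fold change, 6.91 ± 0.81, adjusted p = 1.02e-06, therefore depends on the small prior count in the deposited values. Mki67, which codes for the proliferation marker Ki-67, was at 2.33, 2.13, 1.02, 2.88 and 2.09 in PiZ, against -3.91, -4.08, -2.37, -2.96 and -4.10 in WT PBS (5.57 ± 0.42, adjusted p = 6.6e-09). Every PiZ library exceeded every WT PBS library for both genes. Cdk1, the kinase that drives mitosis, was at 3.07, 2.77, 2.69, 2.55 and 2.88 in PiZ, against -1.26, -0.50, -2.20, -0.94 and -0.37 in WT PBS (3.85 ± 0.37, adjusted p = 1.01e-07). Top2a, a topoisomerase that untangles sister chromosomes, was at 2.91, 2.86, 2.98, 3.10 and 2.42 in PiZ, against -1.70, -1.86, -0.38, -0.52 and -1.04 in WT PBS (3.96 ± 0.37, adjusted p = 7.44e-08). In both cases the groups were several log2 units apart.

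The remaining mitosis genes did not overlap between the groups either, at smaller distances in part of them. Cyclin A2 (Ccna2), which acts in S phase and early mitosis, rose by 5.00 ± 0.43, adjusted p = 2.62e-08, and Foxm1, a transcription factor of mitotic genes, by 3.82 ± 0.40, adjusted p = 2.51e-07. Rises of the other mitosis genes tested lay between 2.87 ± 0.39 for Kif11, a spindle motor, and 5.39 ± 0.78 for Tpx2. Aurka, a centrosome kinase, had the smallest rise (1.16 ± 0.19, adjusted p = 3.6e-05) and was the most abundant of the 21 in WT PBS, at 1.14 ± 0.14 log2 CPM (SD, n = 5). The 4 mitosis genes too low to be tested, Cdc25c, Bub1, Cenpe and Cenpf, reached at most 1.11 in PiZ and at most -2.58 in WT PBS, without overlap in any of them. With no filter, 21 of 21 mitosis genes, 15 of 16 S phase genes and 7 of 9 G1 genes passed. Their medians were 4.20, 1.38 and 0.89, against 0.36 over all genes in that fit, whose share called is not given here. Without the 5 genes whose difference is built in, 29 of 36 genes tested had no overlap between PiZ and WT PBS, as did 33.4% of all genes.

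**Figure D2:**
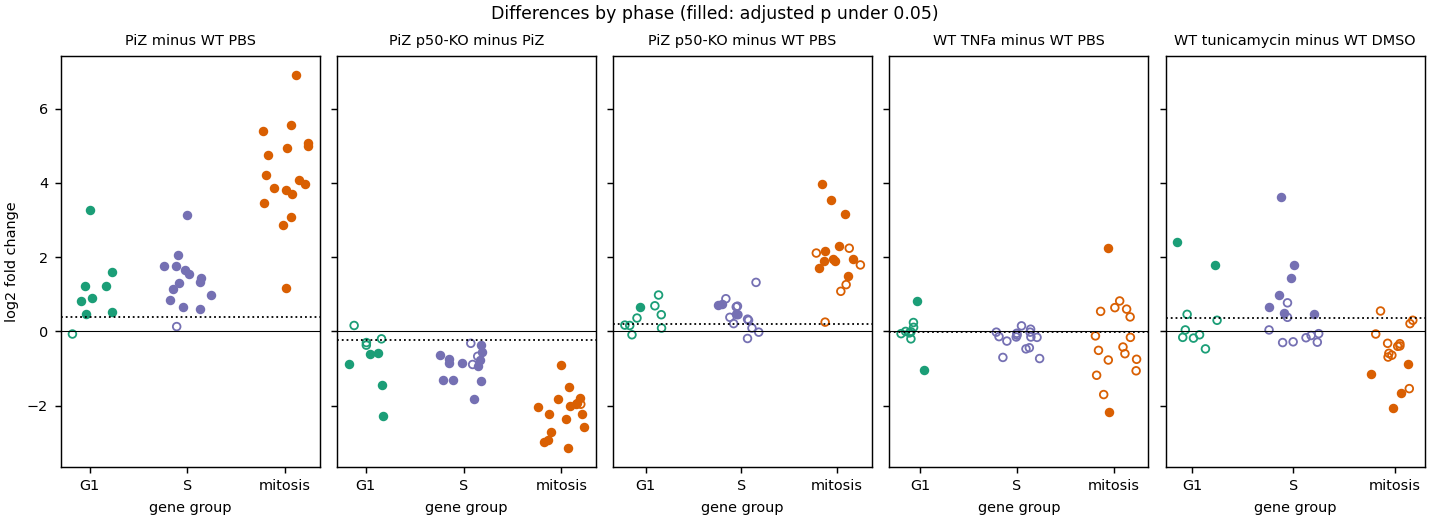
Log2 fold change of each tested gene by phase in the 5 comparisons, filled where the adjusted p is under 0.05, with the median of all genes tested as a dotted line. Mitosis genes stand highest in PiZ against WT PBS, with a median of 3.84 over the 12 whose difference is not built in, and after tunicamycin several S phase genes lie above 0 while most mitosis genes lie below it.

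These counts depend on WT PBS 2 and on the scale. With that library in the fit 3 G1, 3 S phase and 10 mitosis genes rose, among 14.8% of all genes called, and when all libraries were shifted to the same median, which moved the median of all genes from 0.40 to -0.14, the counts were 3, 9 and 17. After that shift more of all genes fell than rose, so the shares given for the main fit are not its background. Only 5 G1 genes passed without PiZ 2, without PiZ 3 or without WT PBS 4. In bulk liver, more cells of a dividing type and more RNA per cell cannot be told apart.

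Related genes outside the 46 were counted from lists of the same machinery. These counts stand beside 42.2% of all genes that rose and 5.86% that fell. Of 18 kinetochore and spindle genes tested 17 rose, led by Hmmr (5.74 ± 0.69, adjusted p = 1.44e-06) and Ckap2l (5.30 ± 0.69, adjusted p = 3.31e-06), both of the mitotic spindle. Hmmr, Ckap2l, Pbk, Kif2c and Melk of this list passed the filter on low values only because of their level in PiZ. Their difference is built in, as is that of Ncapg, Espl1, Pole2 and E2f7 in the next lists. Of 15 condensin and cohesin genes 12 rose and 1 fell, and of 26 origin and polymerase genes 14 rose and 1 fell, led by Dbf4, the activator of the Cdc7 kinase (2.01 ± 0.23, adjusted p = 6.76e-07). Of 15 genes of the retinoblastoma, E2F and DREAM families 9 rose, led by Rbl1, the pocket protein p107 (2.47 ± 0.23, adjusted p = 7.71e-08). Of 16 genes of the ubiquitin ligases APC/C and SCF 9 rose, led by Ube2c (2.55 ± 0.33, adjusted p = 2.74e-06), an E2 enzyme of the APC/C. Inhibitors of cell cycle kinases rose too, 4 of 5 tested. Cdkn1a, which codes for p21, was at 7.11, 5.62, 5.89, 5.39 and 6.04 in PiZ, against 3.50, 3.47, 2.62, 2.71 and 2.32 in WT PBS (3.08 ± 0.81, adjusted p = 0.00355). Of 10 growth factor, receptor and early response genes 6 rose, among them Btc, an EGF receptor ligand (2.90 ± 0.42, adjusted p = 1.08e-05), Myc (2.53 ± 0.35, adjusted p = 6.92e-06) and Hgf, a mitogen of hepatocytes (1.53 ± 0.24, adjusted p = 2.74e-05).

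Markers of part of the other liver cell types were also higher in PiZ, while 42.2% of all genes rose and 5.86% fell. Of 10 macrophage markers 9 rose, and their summed level was 577 to 849 CPM in PiZ, against 166 to 196 CPM in WT PBS, with none at 0. Of 7 stellate cell markers 7 rose (374 to 642 CPM in PiZ, against 74.1 to 90.2 CPM in WT PBS), and of 5 cholangiocyte markers tested 4 rose (82.9 to 125 CPM, against 23.4 to 26.9 CPM). Of 7 endothelial markers 6 rose (244 to 317 CPM in PiZ, against 171 to 222 CPM in WT PBS). Of 4 B and plasma cell markers tested 4 rose, at a low sum of 4.34 to 12.0 CPM, against 0.959 to 3.06 CPM, and T and NK cell markers, of which 1 of 2 tested rose, summed to 3.71 to 5.68 CPM, against 1.27 to 2.52 CPM. Of the markers tested, the B cell marker Ms4a1, the NK cell marker Nkg7 and the myeloid precursor marker Prtn3 would not have passed the filter without PiZ. Their difference is built in. Of 3 neutrophil and myeloid precursor markers tested 1 rose (5.80 to 25.2 CPM in PiZ, against 1.53 to 15.4 CPM in WT PBS), and Mpo and Camp had 0 reads in all 5 WT PBS libraries, which allows up to 3 reads per library, or 0.0556 to 0.0721 CPM. Erythroid markers showed 0 rises and 1 fall of 6, and hepatocyte markers 0 rises and 3 falls of 8 (70900 to 103000 CPM in PiZ, against 89800 to 116000 CPM in WT PBS). The part of other cell types in the rise of the cell cycle genes was not tested.

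**Figure D3:**
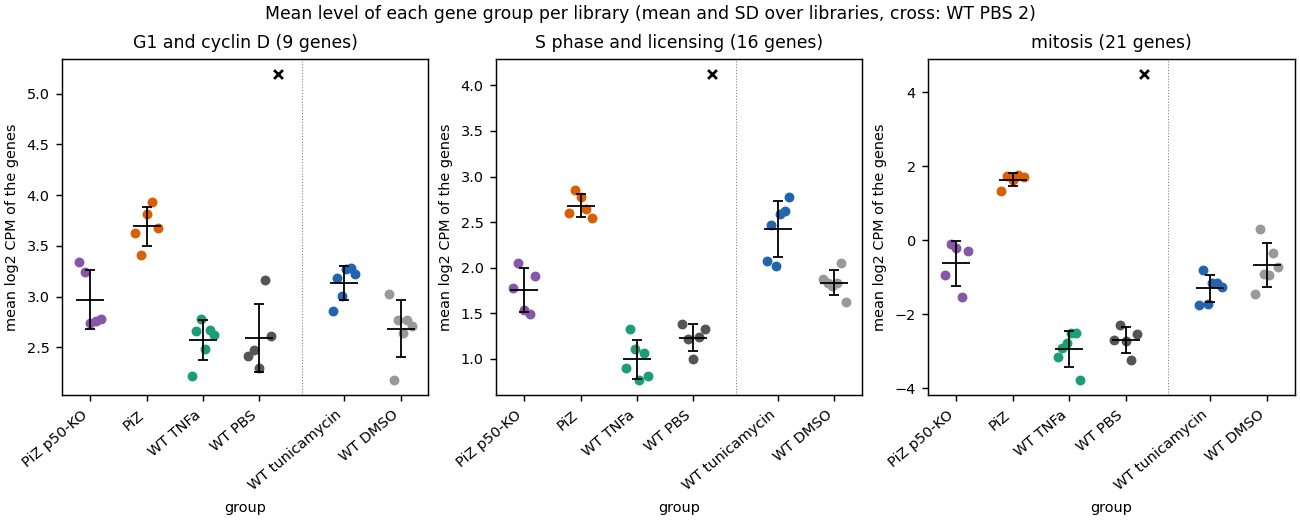
Mean log2 CPM of the genes of each phase in each library, with the mean and SD over libraries as bars, the groups of the first table left of the dotted line and those of the second right of it, and WT PBS 2 as a cross outside the mean. For mitosis the PiZ libraries lie between 1.34 and 1.77, the libraries labelled PiZ p50-KO between -1.54 and -0.10, and WT PBS between -3.24 and -2.29.

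The comparison of the libraries labelled PiZ p50-KO with PiZ asks what loss of p50 changes in livers with the Z variant. Cell cycle genes of all phases were lower in the libraries labelled PiZ p50-KO. Of 9 G1 genes 5 fell, of 15 S phase genes 12 fell and of 17 mitosis genes 16 fell, while 0 rose in any phase, with medians of -0.57, -0.84 and -2.04. Among all genes 18.9% fell and 3.04% rose (21.9% in either direction), with a median of -0.22. Leaving aside the 5 mitosis genes that passed the filter only through PiZ, each of the other 12 fell, with a median of -1.98. Without these 5, 27 of 36 genes had no overlap between the libraries labelled PiZ p50-KO and PiZ, as did 12.6% of all genes.

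Ccnd1 was at 3.75, 3.55, 4.70, 5.05 and 5.44 in the libraries labelled PiZ p50-KO 1 to 5, against 6.51 to 7.08 in PiZ (-2.28 ± 0.31, adjusted p = 4.59e-05). Ccne1 was at -1.21, -1.43, 0.37, 0.59 and 0.28, against 0.83 to 1.63 in PiZ (-1.43 ± 0.46, adjusted p = 0.0292). Without libraries 1 and 2 the change of Ccne1 did not pass (-0.73 ± 0.45, adjusted p = 0.334). For both genes, and for Cdkn1a at 1.92, 1.98, 6.14, 5.05 and 5.66, libraries 1 and 2 lay far below libraries 3 to 5, a split chosen after its values were seen that is the reverse of that of Nfkb1. E2f1 was at 2.15, 1.80, 1.86, 2.44 and 2.42, against 2.59 to 3.39 in PiZ (-0.87 ± 0.20, adjusted p = 0.00382), and Cdk6 at 4.38, 4.46, 4.94, 5.08 and 4.89, against 5.08 to 5.56 in PiZ (-0.57 ± 0.14, adjusted p = 0.00727). Ccnd2 was at 2.92, 3.78, 3.78, 3.69 and 3.75, against 3.98 to 4.47 in PiZ (-0.61 ± 0.18, adjusted p = 0.0212). These 3 genes were lower in every library labelled PiZ p50-KO than in any PiZ library, although for Cdk6 the nearest libraries of both groups were equal to 2 decimals. Ccne2 (1.65, 1.21, 0.58, 1.22 and 1.22), Cdk4 (4.61, 4.77, 4.10, 4.97 and 4.89), E2f2 (2.14, 1.73, 0.89, 1.27 and 2.03) and Ccnd3 (4.66, 5.01, 3.44, 4.82 and 5.16) overlapped with PiZ and did not pass.

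Of the S phase genes, Gins2 was at 0.33, -1.15, -0.73, 0.43 and 0.20, against 0.56 to 2.11 in PiZ (-1.81 ± 0.47, adjusted p = 0.00918), and Mcm6 at 2.46, 1.66, 2.20, 1.57 and 0.83, against 2.63 to 3.81 in PiZ (-1.33 ± 0.30, adjusted p = 0.00387). Mcm5 was at 2.16, 1.55, 2.27, 2.46 and 2.16, against 3.24 to 3.62 in PiZ (-1.32 ± 0.20, adjusted p = 0.000126). Rrm2 was at 2.29, 1.99, 2.60, 3.01 and 2.71, against 3.64 to 4.13 in PiZ (-1.31 ± 0.27, adjusted p = 0.00188). All 4 were lower in each library labelled PiZ p50-KO than in any PiZ library. Pcna, at 4.21, 4.04, 4.08, 4.46 and 4.33, against 4.68 to 4.86 in PiZ, fell by less (-0.56 ± 0.11, adjusted p = 0.000908).

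Of the mitosis genes, cyclin B2 (Ccnb2) was at -1.09, -1.88, -0.36, -0.05 and -0.98, against 2.72, 2.66, 1.80, 2.30 and 1.87 in PiZ (-3.14 ± 0.60, adjusted p = 0.000852). Plk1, a mitotic kinase, was at -0.40, -2.73, 0.46, -0.20 and -1.25, against 1.83, 2.39, 2.57, 2.00 and 1.96 in PiZ (-2.98 ± 0.68, adjusted p = 0.00375). Ccnb1 was at -0.64, -2.25, 0.37, 0.85 and -0.39, against 2.05 to 3.14 in PiZ (-2.93 ± 0.81, adjusted p = 0.0124). Library 2 was the lowest of its group in all 3 genes, each of which had passed the filter only through its level in PiZ, so that their difference is built in. Cdk1 was at 0.59, -0.04, 1.21, 1.38 and 1.01, against 2.55 to 3.07 in PiZ (-1.96 ± 0.37, adjusted p = 0.000818), Mki67 at 0.30, 0.28, -0.18, 0.45 and -0.61, against 1.02 to 2.88 in PiZ (-2.04 ± 0.42, adjusted p = 0.00178), and Top2a at 1.42, 0.02, 1.86, 1.00 and 0.00, against 2.42 to 3.10 in PiZ (-2.0 ± 0.37, adjusted p = 0.00069). None of these groups overlapped. Aurkb, a kinase of chromosome segregation, was the mitosis gene tested that did not pass (-1.96 ± 0.84, adjusted p = 0.1).

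Counts of the related lists stand beside 18.9% of all genes that fell and 3.04% that rose. Of these lists, 16 of 18 kinetochore and spindle genes fell, led by Pbk (-2.82 ± 0.53, adjusted p = 0.000726), and 9 of 15 condensin and cohesin genes fell and 1 rose. Pbk, Hmmr, Ckap2l, Kif2c and Melk of the first list passed the filter only through PiZ, as did Ncapg and Espl1 of the second. The difference of these genes is built in. Of 26 origin and polymerase genes 7 fell, led by Dbf4 (-1.24 ± 0.23, adjusted p = 0.000614), and Rbl1 led the 4 of 15 retinoblastoma, E2F and DREAM genes that fell (-0.89 ± 0.23, adjusted p = 0.00888). Of 16 APC/C and SCF genes 4 fell, led by Ube2c (-1.71 ± 0.33, adjusted p = 0.000858). Of 10 growth factor, receptor and early response genes 4 fell and 1 rose, and Myc was among those that fell (-1.20 ± 0.35, adjusted p = 0.0177). Of 5 kinase inhibitors 1 fell, Cdkn2c (-0.79 ± 0.25, adjusted p = 0.0271), and Cdkn1a did not pass (-1.86 ± 0.81, adjusted p = 0.104). Macrophage markers were lower too, 10 of 10, with a summed level of 264 to 486 CPM in the libraries labelled PiZ p50-KO, against 577 to 849 CPM in PiZ. So were 6 of 7 stellate markers (107 to 229 CPM, against 374 to 642 CPM) and 3 of 5 cholangiocyte markers (28.5 to 73.7 CPM, against 82.9 to 125 CPM). B and plasma cell markers summed to 1.75 to 3.06 CPM, against 4.34 to 12.0 CPM in PiZ. Sums of the T and NK cell, neutrophil and myeloid precursor, endothelial, erythroid and hepatocyte markers overlapped between the groups. The part of other cell types in the fall of the cell cycle genes was not tested.

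Most of these calls were lost with WT PBS 2 in the fit, although the medians of the fold changes were the same: 1 G1, 1 S phase and 0 mitosis genes then fell, among 2.82% of all genes called, while limma gave 5, 10 and 20 of 20 when only these 2 groups were fitted. In that fit of 2 groups Bub1, Cenpe and Cdc6 passed the filter only through PiZ, so their difference is built in. The median over all genes was -0.23 there, and the share called is not given here. Shifted to the same median the counts were 2, 7 and 14, without the libraries labelled PiZ p50-KO 1 and 2 they were 2, 9 and 12, where Ccnd2 (-0.45 ± 0.18, adjusted p = 0.124), Cdk6 (-0.35 ± 0.14, adjusted p = 0.12), Gins2 (-1.66 ± 0.54, adjusted p = 0.0586) and Ccnb1 (-2.24 ± 0.91, adjusted p = 0.128) no longer passed either, and 3 G1 genes passed without PiZ 2, without PiZ 3 or without PiZ p50-KO 1. After the shift more of all genes rose than fell. Without the libraries labelled PiZ p50-KO 1 and 2 more of all genes fell than rose.

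Set against WT PBS, the libraries labelled PiZ p50-KO were still higher for part of the list. Of 9 G1 genes 1 rose, of 15 S phase genes 3 rose and of 17 mitosis genes 11 rose, with 0 lower and medians of 0.36, 0.45 and 1.96, among 9.87% of all genes called (8.92% higher) and a median of 0.19. Ccnb1 was higher by 3.97 ± 0.81, adjusted p = 0.00679 and Mki67 by 3.53 ± 0.42, adjusted p = 0.000267, and every library labelled PiZ p50-KO lay above every WT PBS library for both. Of 41 genes 11 had no such overlap, as did 6.13% of all genes. Cdk6 was the G1 gene that rose (0.65 ± 0.14, adjusted p = 0.00951), while Ccnd1 missed the threshold (0.98 ± 0.31, adjusted p = 0.0504). Without PiZ p50-KO 1 and 2, Ccnd1 passed (1.55 ± 0.28, adjusted p = 0.000704) and Mcm2 did not (0.59 ± 0.22, adjusted p = 0.079). The S phase genes that rose were Mcm2 (0.70 ± 0.19, adjusted p = 0.0278), Mcm5 (0.75 ± 0.20, adjusted p = 0.025) and Mcm7 (0.48 ± 0.13, adjusted p = 0.0272). Hmmr, Ckap2l and Pbk, of the kinetochore and spindle list, would not have passed the filter without the libraries labelled PiZ p50-KO, so their difference is built in. Of the related lists 7 of 18 kinetochore and spindle genes rose, 3 of 15 condensin and cohesin genes, 3 of 26 origin and polymerase genes, 2 of 15 retinoblastoma, E2F and DREAM genes, 1 of 10 growth factor, receptor and early response genes, 0 of 16 APC/C and SCF genes and 0 of 5 kinase inhibitors. At an unadjusted p under 0.05, 3 and 2 genes of the last pair of lists passed in limma. With WT PBS 2 in the fit 0 of the 46 genes passed in limma, among 0.0785% of all genes called, with 2 at an unadjusted p under 0.05, and with only these 2 groups in the fit 0, 0 and 6 did. In that fit of 2 groups Mki67, Foxm1 and other mitosis genes passed the filter only through the libraries labelled PiZ p50-KO. The number of S phase genes was 5 without PiZ p50-KO 3, 1 without PiZ p50-KO 4 and 0 without PiZ p50-KO 5, WT PBS 3 or WT PBS 4, and that of G1 genes was 2 without PiZ p50-KO 1, PiZ p50-KO 2 or WT PBS 3. This comparison shares its libraries with both comparisons above.

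**Figure D4:**
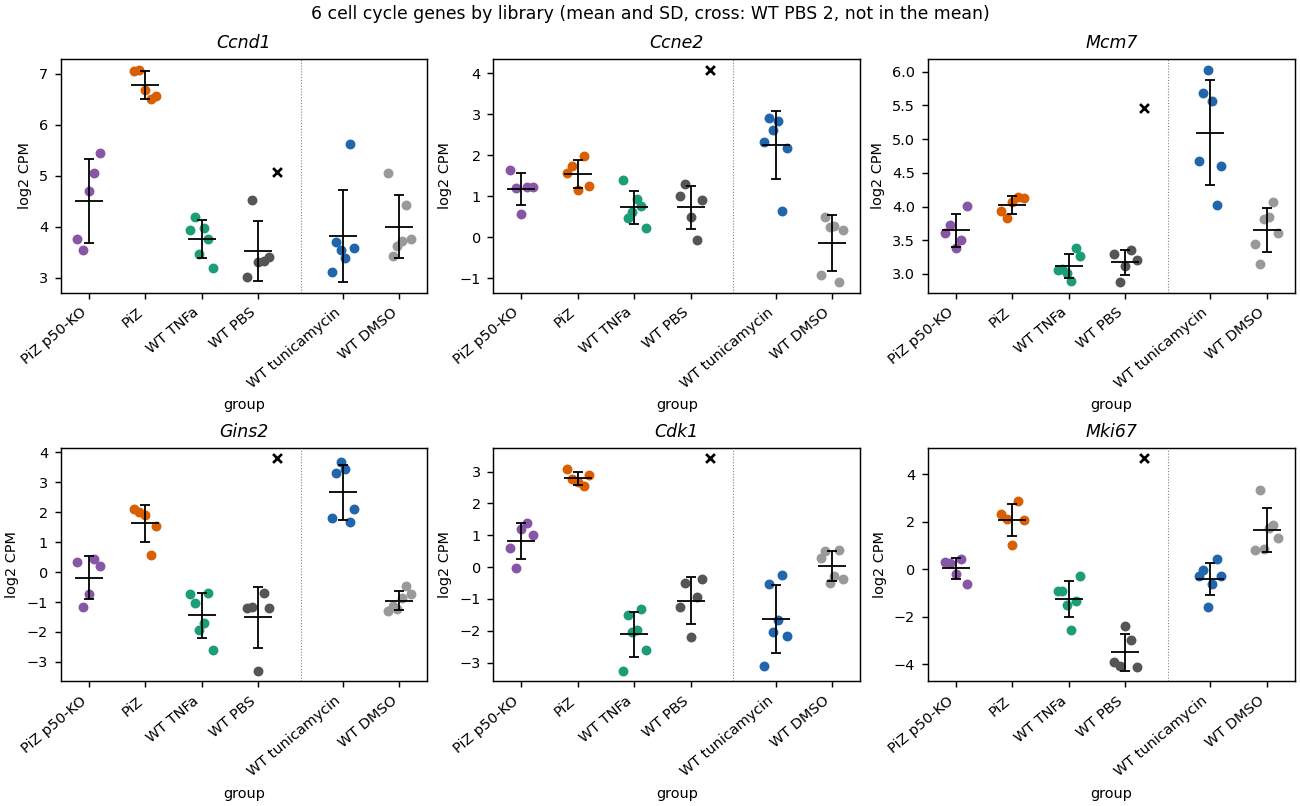
Log2 CPM of 6 genes in every library by group, with the mean and SD as bars, the groups of the first table left of the dotted line and those of the second right of it, and WT PBS 2 as a cross outside the mean. Ccnd1 is highest in PiZ, at 6.51 to 7.08, Gins2 is high in PiZ and after tunicamycin, and Mki67 is lower after tunicamycin than in WT DMSO.

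TNFa for 2 hours changed cell cycle genes in WT livers at a share near that of all genes. Of 9 G1 genes 1 rose and 1 fell, of 15 S phase genes 0 changed and of 17 mitosis genes 1 rose and 1 fell, while 10.6% of all genes were called (6.85% higher and 3.74% lower) and the medians were -0.01, -0.15 and -0.42, against -0.02 over all genes. At an unadjusted p under 0.05, 2 of the 15 S phase genes passed in limma. Ccnd2 had a lowest of 3.85, a median of 4.57 and a highest of 4.82 log2 CPM in the 6 TNFa libraries, against 3.77, 3.94, 3.52, 3.59 and 3.56 in WT PBS. The groups overlapped in 1 library, WT TNFa 4, and the rise was 0.83 ± 0.17, adjusted p = 0.00286. WT TNFa 4 also had the lowest Nfkb1 of its group, 4.77, against 6.57 to 6.95 in the other 5. Mki67 had a lowest of -2.54, a median of -1.12 and a highest of -0.26 in TNFa, against -3.91, -4.08, -2.37, -2.96 and -4.10 in WT PBS. It rose by 2.24 ± 0.41, adjusted p = 0.000757, with 1 TNFa library within the WT PBS range, and no longer passed on the scale of log2(CPM + 1) (0.40 ± 0.17, adjusted p = 0.183).

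No other mitosis gene rose. Cdk1 had a lowest of -3.25, a median of -2.01 and a highest of -1.32 in TNFa, against -1.26, -0.50, -2.20, -0.94 and -0.37 in WT PBS (-1.06 ± 0.35, adjusted p = 0.061), and Ccnb1 had a lowest of -6.52, a median of -3.26 and a highest of -2.54 (0.64 ± 0.77, adjusted p = 0.743). Top2a had a lowest of -1.37, a median of -0.53 and a highest of 0.23 in TNFa, which overlapped with WT PBS (0.54 ± 0.35, adjusted p = 0.439). Cdc20, an activator of the APC/C, had a lowest of -6.52, a median of -4.16 and a highest of -1.02 in TNFa, against -1.89, -1.34, -2.37, -1.63 and -1.35 in WT PBS, and fell by 2.17 ± 0.64 on the log2 scale (adjusted p = 0.0322), with 0 reads in 1 TNFa library. E2f2 had a lowest of -0.93, a median of -0.07 and a highest of 0.72 in TNFa, against 1.86, 0.88, 0.42, 0.96 and 0.48 in WT PBS, and fell by 1.03 ± 0.33 (adjusted p = 0.0491). Both falls were at low levels with overlapping groups.

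Levels of the other G1 genes overlapped between the groups. Ccnd1 had a lowest of 3.19, a median of 3.84 and a highest of 4.19 in TNFa (0.24 ± 0.30, adjusted p = 0.757) and Ccnd3 had a lowest of 4.32, a median of 4.66 and a highest of 4.92 (0.11 ± 0.31, adjusted p = 0.912). Ccne1 (-0.06 ± 0.44, adjusted p = 0.97), Ccne2 (0.00 ± 0.25, adjusted p = 0.997), Cdk4 (-0.04 ± 0.16, adjusted p = 0.944), Cdk6 (-0.01 ± 0.14, adjusted p = 0.983) and E2f1 (-0.20 ± 0.19, adjusted p = 0.657) did not pass either. Of the S phase genes, Mcm5 had a lowest of 0.95, a median of 1.19 and a highest of 1.49 in TNFa (-0.16 ± 0.19, adjusted p = 0.751), Pcna a lowest of 3.96, a median of 4.09 and a highest of 4.29 (-0.02 ± 0.10, adjusted p = 0.958) and Rrm2 a lowest of 0.85, a median of 1.33 and a highest of 2.10 (-0.70 ± 0.26, adjusted p = 0.0999). Their WT PBS values are those given for PiZ, and they overlapped.

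Counts of the related lists stand beside 6.85% of all genes that rose and 3.74% that fell. Among the growth factor, receptor and early response genes 3 of 10 rose and 1 fell, led by Myc, an early response gene (2.58 ± 0.33, adjusted p = 3.13e-05), and Tgfa, a ligand of the EGF receptor (1.19 ± 0.17, adjusted p = 8.96e-05). Of 26 origin and polymerase genes 0 rose and 4 fell, led by the replication initiation gene Mcm10 (-1.97 ± 0.40, adjusted p = 0.00225) and Gmnn, which codes for the Cdt1 inhibitor geminin (-1.31 ± 0.31, adjusted p = 0.00616). Of 18 kinetochore and spindle genes 2 fell, Incenp (-2.09 ± 0.47, adjusted p = 0.00486) and Cdca8 (-0.95 ± 0.30, adjusted p = 0.0490), both of the chromosomal passenger complex. Of 16 APC/C and SCF genes 1 fell, Skp2 (-1.56 ± 0.37, adjusted p = 0.00757), the substrate receptor of an SCF ligase for p27. Cdkn1a did not pass (1.58 ± 0.77, adjusted p = 0.248), and neither did any of the 5 kinase inhibitors, 15 condensin and cohesin genes or 15 retinoblastoma, E2F and DREAM genes in limma, of which 2, 1 and 3 had an unadjusted p under 0.05. Of 41 cell cycle genes tested 0 had no overlap between the groups, against 4.82% of all genes. Neutrophil and myeloid precursor markers summed to 6.08 to 96.2 CPM in TNFa, against 1.53 to 15.4 CPM in WT PBS, with 2 of 3 tested higher, and 2 of 10 macrophage markers rose (221 to 322 CPM, against 166 to 196 CPM). Their part was not tested.

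With WT PBS 2 in the fit 0 of the 46 genes passed in limma, among 3.54% of all genes called, while 11 had an unadjusted p under 0.05. The fall of E2f2 no longer passed without WT PBS 1, 3, 5 or 6 or without TNFa 1, 2, 3, 5 or 6, that of Cdc20 without WT PBS 1, 3, 5 or 6 or without TNFa 1, 2, 3 or 6, and Cdk1 passed without WT PBS 4 (-1.35 ± 0.34, adjusted p = 0.0144) or TNFa 5 (-1.22 ± 0.36, adjusted p = 0.0369), as Rrm2 did without WT PBS 1 (-0.89 ± 0.26, adjusted p = 0.0353) or TNFa 4 (-0.85 ± 0.26, adjusted p = 0.0262).

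The comparison of tunicamycin with DMSO asks what acute stress of the endoplasmic reticulum changes in WT livers. Both E-type cyclins and part of the S phase genes were higher, and part of the mitosis genes lower. Of the 6 tunicamycin libraries 3 carry no number and go by their tags 1643, 1647 and 1667. Of 9 G1 genes 2 rose and 0 fell, of 16 S phase genes 7 rose and 0 fell, and of 16 mitosis genes 0 rose and 4 fell, with medians of 0.04, 0.43 and -0.49. Plk1, 1 of these 4, and Cenpe passed the filter only through DMSO, and of the other 14 mitosis genes 3 fell, with a median of -0.40. Among all 16678 genes tested 39.8% rose and 12.4% fell (52.2% in either direction), with a median of 0.35, so the share of S phase genes that rose was near the background. Of 41 genes tested 7 had no overlap between the groups, against 28.8% of all genes. Shifted to the same median, which moved the median of all genes from 0.35 to -0.04, the counts were 2 higher and 3 lower, 4 higher and 3 lower, and 0 higher and 8 lower. After that shift more of all genes fell than rose, so the shares above are not its background.

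Both E-type cyclins rose. Ccne2 had a lowest of 0.64, a median of 2.47 and a highest of 2.92 log2 CPM after tunicamycin, against a lowest of -1.09, a median of 0.21 and a highest of 0.49 in DMSO. The groups did not overlap, and the fold change was 2.40 ± 0.40, adjusted p = 0.000275. Ccne1 had a lowest of -0.24, a median of 1.18 and a highest of 2.18 after tunicamycin, against a lowest of -1.82, a median of -0.83 and a highest of 1.00 in DMSO, with overlap (1.78 ± 0.54, adjusted p = 0.014), and with a replicate block it no longer passed (1.44 ± 0.75, adjusted p = 0.163). D-type cyclins did not pass: Ccnd1 had a lowest of 3.10, a median of 3.56 and a highest of 5.62 after tunicamycin, against a lowest of 3.42, a median of 3.73 and a highest of 5.06 in DMSO (-0.18 ± 0.39, adjusted p = 0.718). The highest Ccnd1 after tunicamycin was in the unnumbered library with the tag 1647, which also had the lowest Ccne2. Ccnd2 differed by -0.16 ± 0.17, adjusted p = 0.424 and Ccnd3 by 0.46 ± 0.32, adjusted p = 0.24. WT DMSO 2 was far below its group in Ccnd3 (2.52, against 4.55 to 4.79) and Cdk4 (3.42, against 4.57 to 4.63). Cdk4 (0.30 ± 0.23, adjusted p = 0.29), Cdk6 (-0.47 ± 0.20, adjusted p = 0.0673), E2f1 (0.04 ± 0.19, adjusted p = 0.862) and E2f2 (-0.09 ± 0.17, adjusted p = 0.661) did not pass.

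The S phase genes that rose were a part of the list. Gins2 had a lowest of 1.66, a median of 2.70 and a highest of 3.69 after tunicamycin, against a lowest of -1.29, a median of -0.99 and a highest of -0.47 in DMSO, and Cdc45, its partner in the active helicase, had a lowest of 1.24, a median of 2.06 and a highest of 2.83, against a lowest of -0.37, a median of 0.31 and a highest of 0.84. Neither overlapped between the groups, with fold changes of 3.62 ± 0.36, adjusted p = 6.36e-06 and 1.78 ± 0.30, adjusted p = 0.000345. Pcna had a lowest of 4.69, a median of 5.25 and a highest of 5.57 after tunicamycin, against a lowest of 3.98, a median of 4.24 and a highest of 4.34 in DMSO, again without overlap (0.98 ± 0.17, adjusted p = 0.000452). Rrm2 had a lowest of 1.89, a median of 2.43 and a highest of 3.24 after tunicamycin, against a lowest of 1.48, a median of 1.79 and a highest of 2.12 in DMSO (0.67 ± 0.23, adjusted p = 0.0235). This smaller rise overlapped with DMSO and no longer passed without DMSO 6, without tunicamycin 6 or without the library tagged 1643.

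Of the 6 subunits of the MCM helicase, Mcm7 alone passed. It had a lowest of 4.02, a median of 5.12 and a highest of 6.03 after tunicamycin, against a lowest of 3.15, a median of 3.71 and a highest of 4.07 in DMSO, with 1 tunicamycin library inside the DMSO range (1.43 ± 0.30, adjusted p = 0.00151). Mcm5 had a lowest of 0.93, a median of 1.17 and a highest of 2.66 after tunicamycin, against a lowest of 1.23, a median of 1.81 and a highest of 2.36 in DMSO (-0.30 ± 0.30, adjusted p = 0.423). Mcm2, Mcm3, Mcm4 and Mcm6 did not pass either, with log2 fold changes of 0.04 ± 0.24, -0.28 ± 0.18, -0.29 ± 0.20 and -0.17 ± 0.23. The difference between Mcm7 and the other subunits was not tested. Cdt1 (0.77 ± 0.40, adjusted p = 0.118) and Cdc6 (0.38 ± 0.56, adjusted p = 0.587) did not pass, nor did Pola1 (-0.11 ± 0.20, adjusted p = 0.662) or Gins1 (-0.06 ± 0.17, adjusted p = 0.796), while Rrm1 and Tyms rose by 0.47 ± 0.14 and 0.50 ± 0.13.

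Of the mitosis genes Mki67, Cdk1, Aurka and Plk1 fell. Mki67 had a lowest of -1.59, a median of -0.28 and a highest of 0.43 after tunicamycin, against a lowest of 0.83, a median of 1.54 and a highest of 3.35 in DMSO. The groups did not overlap, and the fold change was -2.05 ± 0.42, adjusted p = 0.00124. Cdk1 had a lowest of -3.12, a median of -1.86 and a highest of -0.24 after tunicamycin, against a lowest of -0.49, a median of 0.01 and a highest of 0.54 in DMSO, with a small overlap (-1.66 ± 0.45, adjusted p = 0.00662). Aurka fell by 1.14 ± 0.21 (adjusted p = 0.000649) without overlap and Plk1 by 0.88 ± 0.34 (adjusted p = 0.0454), where Plk1 passed the filter only through DMSO. With no filter the fall of Plk1 did not pass (-0.88 ± 0.42, adjusted p = 0.156). Top2a had a lowest of 0.29, a median of 1.25 and a highest of 2.18 after tunicamycin, against a lowest of 0.77, a median of 1.12 and a highest of 2.47 in DMSO (-0.07 ± 0.35, adjusted p = 0.873). Ccnb1 was too low to be tested, with a lowest of -6.40, a median of -3.40 and a highest of -2.05 after tunicamycin, against a lowest of -3.87, a median of -1.74 and a highest of -0.39 in DMSO. Of the other genes too low to be tested, Cdc25c was higher after tunicamycin with no filter (2.35 ± 0.69, adjusted p = 0.0181) and Cenpf lower (-2.52 ± 0.69, adjusted p = 0.0118). WT DMSO 2 had the highest mean of the mitosis genes among the DMSO libraries, 0.31, against -1.44 to -0.33.

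Cdkn1a had a lowest of 3.42, a median of 6.48 and a highest of 7.86 after tunicamycin, against a lowest of -0.21, a median of 2.13 and a highest of 4.23 in DMSO, and rose by 4.17 ± 0.76, adjusted p = 0.000548. With Cdkn1b, which codes for p27, it made 2 of 5 kinase inhibitors that rose, a share near the 39.8% of all genes that rose. Counts of the other lists stand beside this share and the 12.4% of all genes that fell. Of 27 origin and polymerase genes 14 rose, led by Rpa2, a subunit of the protein that binds single-stranded DNA (2.31 ± 0.34, adjusted p = 0.000119), and of 17 APC/C and SCF genes 9 rose, led by Ube2c (5.20 ± 0.55, adjusted p = 9.73e-06) and the Cdk subunit gene Cks1b (3.01 ± 0.45, adjusted p = 0.000145). Fen1, among the origin and polymerase genes that rose, passed the filter only through tunicamycin, so its difference is built in. Of 16 retinoblastoma, E2F and DREAM genes 9 rose and 1 fell: Rbl1 rose by 2.17 ± 0.36 (adjusted p = 0.000268) and E2f8, a repressor E2F, fell by 1.41 ± 0.39 (adjusted p = 0.00751). Of 14 condensin and cohesin genes 8 rose, of 17 kinetochore and spindle genes 3 rose and 2 fell, and of 11 growth factor, receptor and early response genes 4 rose and 3 fell, with Myc at 3.50 ± 0.46 (adjusted p = 5.48e-05).

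Of 8 hepatocyte markers 3 fell after tunicamycin (Alb, Ttr and Apoa1) and 1 rose (Tat). In tunicamycin 1, 5 and 6 and the libraries tagged 1643, 1647 and 1667, in this order, they summed to 57200, 40300, 28900, 37200, 74300 and 60500 CPM, against 89800 to 119000 CPM in DMSO. In the same order Mcm7 was at 4.67, 5.68, 6.03, 5.57, 4.02 and 4.60 log2 CPM and Cdkn1a at 5.62, 6.91, 7.86, 7.03, 3.42 and 6.06. The 3 libraries with the lowest hepatocyte sums were those with the highest Mcm7 and Cdkn1a. Macrophage markers summed to 168 to 250 CPM after tunicamycin, against 193 to 662 CPM in DMSO, with 5 of 10 lower. Stellate markers summed to 106 to 125 CPM, against 128 to 214 CPM in DMSO, and sums of the cell types not named here overlapped between the groups. The part of any cell type in the changes of the cell cycle genes was not tested.

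PiZ and tunicamycin were measured in separate batches with no control library in common, so their calls can be set side by side. Of the 39 cell cycle genes tested in both comparisons, 9 (23.1%) rose in both, as did 19.9% of the 14730 genes tested in both: Ccne1, Ccne2, Cdc45, Gins2, Mcm7, Pcna, Rrm1, Rrm2 and Tyms. Cdk1, Aurka, Mki67 and Plk1 rose in PiZ and fell after tunicamycin, as did 4.03% of those 14730. Plk1 passed the filter only through PiZ in the first table and only through DMSO in the second, so both of its differences are built in. With no filter its fall after tunicamycin did not pass. A further 24 rose in PiZ and did not pass after tunicamycin, among them Ccnd1 and Mcm5. Ccnd3 and Gins1 passed in neither, 2 genes rose in PiZ and were too low after tunicamycin, and 5 were too low in PiZ or in both. The difference between the 2 responses was not tested, since no library links the tables.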

How the data were processed

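Bulk RNA-seq of 34 liver libraries in 6 groups was analysed from 2 expression tables, which correspond to the 2 batches of the labels and were never compared with each other by a test. Per the submitters' processing notes, bcl2fastq, DRAGEN, STAR, Subread featureCounts and edgeR were used with build GRCm38. The deposited values are log2 CPM per gene with a small prior count, so that 0 reads read as -6.52 in the table of PiZ, TNFa and PBS and as -6.40 in that of tunicamycin and DMSO. Steps of the lowest values gave whole reads within 0.1 of a read, and from them the depth: 35.46 to 53.98 M reads for PiZ, TNFa and PBS, with 10.21 M for WT PBS 2 alone, and 34.31 to 47.80 M for tunicamycin and DMSO. These reads were used only for depth and for statements on 0 reads, and such limits cover counting error only.

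Groups were taken from the labels. Genes whose mean over the libraries of a fit reached -2 log2 CPM were tested, 14983 for PiZ, TNFa and PBS and 16678 for tunicamycin and DMSO, with limma 3.58.1 in R 4.3.3 (linear model over all groups of a table, moderated with a mean-variance trend). P-values were adjusted over all genes tested by the Benjamini-Hochberg method, and a gene was called at an adjusted p under 0.05. Rose, fell, passed and called refer to this threshold, and log2 fold changes are on the scale of the deposited values, which understates changes of low genes. The procedure was tested on simulated data. WT PBS 2 was left out of the main fit of the first table. The 46 genes and the lists of related genes and cell markers were chosen with earlier results of these data known. Values in every library are given for the 9 G1 genes, Mcm5, Pcna, Rrm2, Ccnb1, Cdk1, Mki67 and Top2a, and for the 2 called genes of each phase that changed most in a comparison. Of a related list, up to 3 called genes that changed most were eligible, besides Cdkn1a, and Nfkb1 was given as the targeted gene.

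Replicate numbers did not pair libraries across groups. Alternatives were WT PBS 2 in the fit, log2(CPM + 1), another filter or none, a shift of all libraries to the same median, a replicate block, each library left out in turn, the libraries labelled PiZ p50-KO 1 and 2 left out together and, chosen after seeing the data, a fit of only the 2 groups compared.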

Additional observations from a re-analysis of the deposited data

Results flagged for a closer look

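In 129 sets of 5 or 6 libraries of 1 group, 15 values stood apart from the rest of their group by Dixon's criterion, which chance alone meets in about 1 in 20 sets. WT PBS 2 stood apart in the mean of each phase, at 5.19 log2 CPM for G1, 4.12 for S phase and 4.48 for mitosis, against 2.30 to 3.16, 1.00 to 1.38 and -3.24 to -2.29 in the other 5 WT PBS libraries.

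The other 12 were single genes. In PiZ, Ccnd3 was at 3.19 in library 4, against 4.53 to 4.93 in the others. In the libraries labelled PiZ p50-KO, Ccnd2 was at 2.92 in library 1, against 3.69 to 3.78. In WT PBS, Ccnd1 was at 4.53 and Cdk6 at 4.46 in library 3, against 3.02 to 3.40 and 3.97 to 4.09, and E2f1 was at 1.36 and Gins2 at -3.29 in library 4, against 1.81 to 1.92 and -1.19 to -0.70. After tunicamycin the library tagged 1647 was high in Ccnd1, at 5.62, against 3.10 to 3.69, and low in Ccne2, at 0.64, against 2.18 to 2.92. In WT DMSO, library 2 was low in Ccnd3 (2.52, against 4.55 to 4.79) and Cdk4 (3.42, against 4.57 to 4.63) and high in Top2a (2.47, against 0.77 to 1.32), and E2f2 was at 2.05 in library 1, against 1.44 to 1.65.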

How the results depend on the processing

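Counts are of genes called, higher before lower where both are given, and for the phases in the order G1, S phase and mitosis. Over the named genes and all settings, 1402 values kept direction and side of the threshold, 122 lost the call, 17 gained one and 3 turned: E2f2 in PiZ against WT PBS with WT PBS 2 (-0.01), and Ccnd2 (-0.03) and Cdk4 (-0.08) after the shift to the same median.

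With WT PBS 2 in the fit, PiZ against WT PBS gave 1943 and 318 over all genes (6318 and 878 without it) and 3, 3 and 10 cell cycle genes. TNFa gave 281 and 260 (1026 and 561 without it), with 0 in G1 and 0 in mitosis. The libraries labelled PiZ p50-KO gave 67 and 364 against PiZ (455 and 2833 without it), with 1, 1 and 0, and 11 and 1 against WT PBS (1336 and 143 without it), with 0, 0 and 0.

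Shifted to the same median, PiZ gave 2260 and 3540, with 3 in G1 and 9 in S phase. The libraries labelled PiZ p50-KO gave 1450 and 1133 against PiZ, with 2 in G1 and 7 in S phase, and 374 and 711 against WT PBS, with 0 and 0. Tunicamycin gave 3824 and 4137 (6641 and 2062 unshifted), with 5 in G1 and 8 in mitosis. The filter above 1 CPM gave 1 in G1 and 2 in mitosis after tunicamycin, where it tested fewer genes, and 2 in G1 for the libraries labelled PiZ p50-KO against WT PBS. No filter gave 1 in G1 and 1 in mitosis for TNFa, and 752 and 67 over all genes with 0 in S phase for the libraries labelled PiZ p50-KO against WT PBS. On log2(CPM + 1), TNFa gave 1 in G1 and 0 in mitosis.

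A fit of only the groups compared gave 1 in G1 and 0 in mitosis for TNFa, 269 higher for the libraries labelled PiZ p50-KO against PiZ, and 277 and 15 over all genes with 0, 0 and 6 against WT PBS. Without the libraries labelled PiZ p50-KO 1 and 2 it was 214 and 1251 against PiZ, with 2 in G1, and 2013 and 395 against WT PBS, with 2 in G1. The cause of these changes was not tested.

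With 1 library left out at a time, PiZ gave 5 to 8 in G1. TNFa gave 371 to 945 lower over all genes, 1 to 2 in G1, 0 to 1 in S phase and 1 to 3 in mitosis. The libraries labelled PiZ p50-KO gave 3 to 6 in G1 against PiZ, and 598 to 1801 higher and 41 to 251 lower with 1 to 2 in G1 and 0 to 5 in S phase against WT PBS.

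Replicate numbers did not pair libraries: same-numbered libraries correlated in their deviations from the group means by -0.22 to 0.48 over all comparisons. A replicate block gave 1 in mitosis for TNFa, and 629 and 89 for the libraries labelled PiZ p50-KO against WT PBS. Ccne1 (1.44 ± 0.75, adjusted p = 0.163) and Rrm2 (0.83 ± 0.39, adjusted p = 0.123) lost their call after tunicamycin under the block. Depth limits the mitosis genes at low levels: of 21, 10 had 0 reads in at least 1 TNFa library and 7 in at least 1 of the 5 WT PBS libraries.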
